A study of Mus musculus with 12 samples.

Results

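Tuft cells are rare chemosensory cells of the intestinal epithelium. The 9 genes described here are known for their use by these cells, namely Dclk1, Trpm5, Pou2f3, Avil, Gfi1b, Ptgs1, Alox5, Ltc4s and Il25. They were chosen by name from the 54532 genes of a count table of mouse colon, and all 9 were present in it. RNA-Seq was done on colon sections of male wild-type C57BL/6J mice that were 5 weeks old at the start, and gave 12 libraries, 3 in each of 4 groups. The control group received no dextran sulfate sodium (DSS), which damages the lining of the colon and gives acute colitis. The model group received DSS alone, the Rhy group received DSS with rhynchophylline (Rhy), an alkaloid from Uncaria rhynchophylla, and the DXM group received DSS with 4 mg/kg of the glucocorticoid dexamethasone (DXM). The study dosed Rhy at 2, 4 or 8 mg/kg, and the labels do not say which of these doses the sequenced Rhy mice had.

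Tuft cells sense luminal contents through a pathway shared with taste cells, in which receptor signals release calcium and open the channel Trpm5. They then secrete interleukin 25, which acts on group 2 innate lymphoid cells (ILC2), and the interleukin 13 of those lymphoid cells in turn favors the formation of tuft and goblet cells. Tuft cells also make prostaglandins and cysteinyl leukotrienes, and their fate depends on the POU transcription factor Pou2f3.

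Total counts were 14346478 to 17749716 per library. Levels are given in CPM, the counts scaled to library size with the TMM method, in which 3 counts, the upper limit that a count of 0 allows, correspond to 0.144 to 0.257 CPM depending on the library and cover counting error only. Of the 54532 genes, 16904 had enough counts to be tested, among them 7 of the 9 tuft cell genes; Gfi1b and Il25 did not pass. The 10 markers of colon epithelium summed to between 15060 and 38680 CPM in every library. The libraries stood apart in a marker of colon position, since Hoxb13, a gene of the distal colon, was at 0.165 CPM in control 3, 1.49 CPM in model 3 and 0 CPM in Rhy 1 and between 71.9 and 316 CPM in the other 9. The libraries model 1 and model 2 differed far less than any other pair, with a dispersion of 0.00201 against 0.0604 to 0.351. The labels do not say that each library came from a separate mouse, so p-values measure only the spread between these libraries, which may be technical.

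The factor Pou2f3 belongs to the family of proteins that bind the octamer ATGCAAAT, so the promoters of the tuft cell genes were read for it. RefSeq promoters on GRCm38.p6, each from 250 bases before to 50 bases after a start, were found for 7 of the 9 genes, with none for Pou2f3 and Il25, and Dclk1 had 2 starts, which gave 8 windows. Of these, 3 are shown, that of Avil because it alone held a match and both of Dclk1 because its counts pool transcripts of both starts. The capitals mark the octamer's first 7 letters, ATGCAAA, or their reverse complement, TTTGCAT, a form chosen after the sequences were seen. The windows are chr10:127000459-127000758 for Avil, chr3:55242114-55242413 for the first start of Dclk1 and chr3:55461478-55461777 for its second start, all on the plus strand.
Avil: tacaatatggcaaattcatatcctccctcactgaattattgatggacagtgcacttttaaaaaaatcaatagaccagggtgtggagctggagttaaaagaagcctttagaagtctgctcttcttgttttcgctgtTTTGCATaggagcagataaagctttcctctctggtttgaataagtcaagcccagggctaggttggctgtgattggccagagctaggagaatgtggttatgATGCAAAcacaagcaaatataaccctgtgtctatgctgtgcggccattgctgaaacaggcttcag
Dclk1, first start: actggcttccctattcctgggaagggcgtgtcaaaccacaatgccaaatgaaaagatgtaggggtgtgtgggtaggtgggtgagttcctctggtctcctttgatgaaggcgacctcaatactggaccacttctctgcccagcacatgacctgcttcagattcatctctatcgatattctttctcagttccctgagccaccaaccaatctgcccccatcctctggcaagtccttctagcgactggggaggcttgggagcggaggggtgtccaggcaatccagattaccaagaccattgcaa
Dclk1, second start: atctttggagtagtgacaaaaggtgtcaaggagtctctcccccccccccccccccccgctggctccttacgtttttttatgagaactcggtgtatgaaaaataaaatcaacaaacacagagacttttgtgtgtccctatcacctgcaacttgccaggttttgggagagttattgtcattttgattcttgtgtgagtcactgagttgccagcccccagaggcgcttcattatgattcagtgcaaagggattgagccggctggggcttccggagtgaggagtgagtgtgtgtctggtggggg

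The full octamer, searched on both strands, was in 0 of the 8 windows, and 1.74% of all 32851 mouse promoters of that length held it. The form of 7 letters, which every octamer match also contains, was in 1 of the 8, where it occurred once on each strand. Of all promoters, 4.63% held it at least once and 0.292% held it 2 or more times. These are matches of letters only, and a window without them says nothing on binding. Because the form of 7 letters was chosen after the sequences were seen, the shares over all promoters do not tell how unusual the Avil window is.

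The levels of the tuft cell genes were low and unequal. On the FPKM scale, the depth-scaled count per length, which allows genes to be compared per length, Ptgs1 was the highest at 8.53 ± 2.80 (SD, n = 12). Its range did not overlap that of the next gene, Avil, at 1.58 ± 0.695 FPKM (SD, n = 12). Then came Ltc4s at 1.10 ± 0.496, Dclk1 at 0.845 ± 0.265, Trpm5 at 0.362 ± 0.185, Alox5 at 0.300 ± 0.101, Pou2f3 at 0.159 ± 0.128, Gfi1b at 0.139 ± 0.103 and Il25 at 0.0676 ± 0.103 FPKM (SD, n = 12 each). Below Avil, the ranges of neighbors in this order overlapped in every case, although within libraries Dclk1 was above Trpm5 in 12 of 12 and Alox5 was above Pou2f3 in 11 of 12. In bulk colon, fewer tuft cells and less RNA per tuft cell cannot be told apart.

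**Figure D1:**
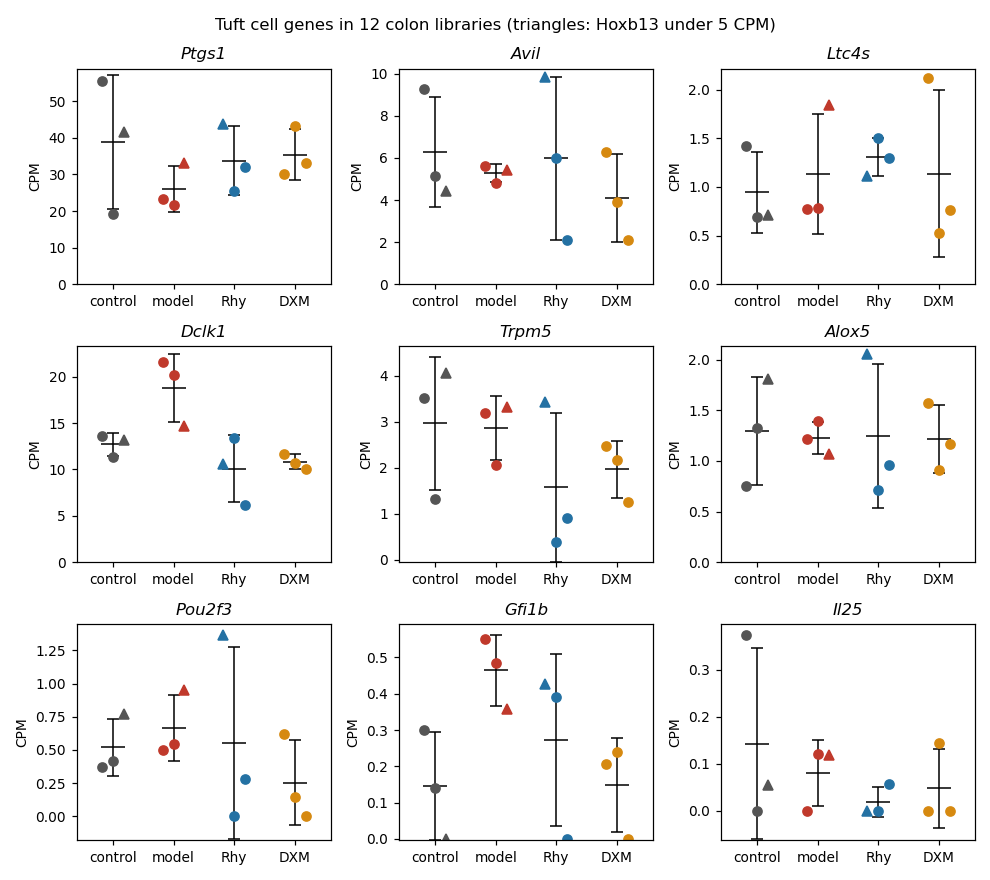
Level of each tuft cell gene in CPM (vertical axis, linear, a separate scale for each gene) in the 12 libraries, by group; points are libraries, the wide dash is the group mean, and bars are ± 1 SD over 3 libraries. Triangles mark the 3 libraries with Hoxb13 under 5 CPM. The 3 model libraries of Dclk1 lie between 14.6 and 21.5 CPM, above all 9 other libraries.

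None of the 7 tested genes passed the adjusted threshold in any of the 3 main comparisons by edgeR's quasi-likelihood test. The single tested gene whose groups stood apart was Dclk1, a doublecortin-like kinase bound to microtubules that is the customary marker of mouse tuft cells. Its gene lies at chr3:55242364-55539068 on the plus strand. It was at 13.6, 11.3 and 13.2 CPM in the control group and at 21.5, 20.2 and 14.6 CPM in the model group. It was at 10.6, 13.4 and 6.22 CPM in the Rhy group and at 11.7, 10.7 and 10.1 CPM in the DXM group. Each model library was thus higher than every other library, while the control, Rhy and DXM groups overlapped one another. These values rest on 110 to 391 counts per library.

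Against the control group, the log2 fold change of Dclk1 in the model group was 0.56 (SE 0.27), a ratio of 1.48 (edgeR, Benjamini-Hochberg adjusted p = 0.535). Against the model group, that of the Rhy group was -0.90 (SE 0.27), a ratio of 0.536 (edgeR, adjusted p = 1.00). The DXM group gave -0.79 (SE 0.27) against the model group, a ratio of 0.577 (edgeR, adjusted p = 0.622). The last 2 contrasts share the model libraries, and so do not count as independent of each other or of the first. An exact two-sided permutation test of the CPM gave p = 0.1 in each of the 3, the smallest p that 3 against 3 libraries allow. Model 3, the lowest model library for Dclk1, was also the model library with low Hoxb13. Among the libraries with high Hoxb13 the mean was 12.5 CPM in the control, 20.9 in the model and 9.83 in the Rhy group. Among those with low Hoxb13 the single values were 13.2, 14.6 and 10.6 CPM in that order. All 3 DXM libraries had high Hoxb13, with a mean of 10.8 CPM, so the DXM and model groups also differed in Hoxb13. When model 1 and model 2 were summed as 1 library, which was decided with the data in view, the log2 fold changes were 0.485, -0.819 and -0.715 (edgeR, adjusted p = 0.887, 1.00 and 0.932).

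The Rhy and DXM groups overlapped the control group for Dclk1 and were lower on average, with log2 fold changes of -0.34 (SE 0.27; edgeR adjusted p = 0.635) and -0.23 (SE 0.27; edgeR adjusted p = 0.678) against it. The Rhy and DXM groups differed by 0.10 (SE 0.27) on the log2 scale, DXM minus Rhy. The mean of the 3 DSS groups against the control group gave a log2 fold change of -0.0013, an average of the 0.56 of the model group with these negative values. An exact permutation test of the 9 DSS libraries against the 3 control libraries gave p = 0.955, where the smallest possible is 0.00909.

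Read against all tested genes, the count of tuft cell genes was not large. At an adjusted p under 0.05, edgeR called 0 of the 7, and 0% of the 16904 tested genes, in model against control, Rhy against model and DXM against model. DESeq2 and limma also called 0 of the 7 in each, although DESeq2 called 46, 5 and 51 of all genes and limma 0. DESeq2 withholds the adjusted p from genes of low mean count. It gave none for Trpm5, Pou2f3 and Avil in model against control, so these genes could not be called there. Alox5 and Ltc4s had fewer counts than Avil (242 and 216 against 1010 over the 12 libraries), so the same holds for them. There the DESeq2 count of 0 thus rests on Dclk1 and Ptgs1. For DESeq2, a gene without an adjusted p is counted as not called. At an unadjusted p under 0.05, edgeR marked 0 of the 7 in model against control, where it marked 9.62% of all tested genes. It marked 1 of the 7, Dclk1, both in Rhy against model (background 3.72%) and in DXM against model (background 7.69%), and DESeq2 and limma each gave the same count of 1. The groups did not overlap for 1 of the 7, again Dclk1, in each comparison, while 17.0% of all tested genes did not overlap in model against control, 11.5% in Rhy against model and 22.6% in DXM against model. The median log2 fold change of the 7 was -0.05, 0.0043 and -0.37 in the 3 comparisons, beside 0.0064, -0.01 and -0.01 over all tested genes.

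The other contrasts gave no call either. At an adjusted p under 0.05 the edgeR test called 0 of the 7, and 0% of all genes, in Rhy against control, DXM against control, DXM against Rhy and the mean of the 3 DSS groups against control. At an unadjusted p under 0.05 it also marked 0 of the 7 in these 4, with a background of 11.6%, 18.9%, 5.02% and 17.0% in that order. DESeq2 likewise called 0 of the 7 in them, and 32, 1059, 9 and 748 of all genes. Here too, a gene without an adjusted p is counted as not called.

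**Figure D2:**
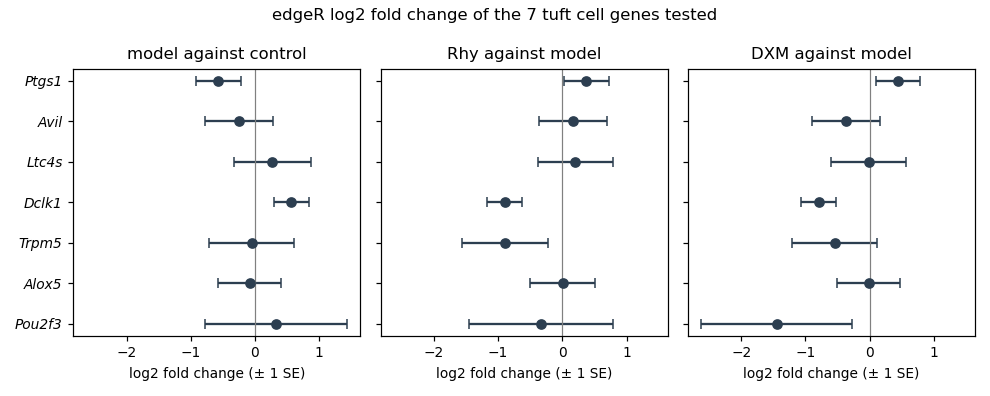
Log2 fold change (horizontal axis) of the 7 tested tuft cell genes in the 3 main comparisons, from edgeR with all 12 libraries in 1 fit; points are estimates and bars ± 1 SE. Dclk1 lies at 0.56, -0.90 and -0.79 with the narrowest bars, and the bars of Pou2f3, a gene of few counts, span over 2 log2 units.

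The chemosensory gene Trpm5, which encodes the calcium-activated cation channel of tuft and taste cells, showed a wide spread within groups. It was at 3.52, 1.32 and 4.06 CPM in the control group, 3.20, 2.06 and 3.33 in the model group, 3.42, 0.392 and 0.904 in the Rhy group and 2.47, 2.17 and 1.26 in the DXM group. All groups overlapped. The log2 fold change was -0.05 (SE 0.66) in model against control, -0.89 (SE 0.68) in Rhy against model and -0.55 (SE 0.66) in DXM against model, none past an unadjusted p of 0.05 by edgeR. The Rhy value depended most on Rhy 1, the high library of its group. Without it the log2 fold change was -2.12 (edgeR, adjusted p = 0.753, unadjusted under 0.05), and without Rhy 2 it was -0.42. Of the 6398 exonic bases of Trpm5, 220 lie across from Tssc4 on the other strand, which had 5157 counts over all libraries against 456 for Trpm5, so that some of its reads are uncertain.

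Of the transcriptional regulators, Pou2f3 was at 0.374, 0.417 and 0.768 CPM in the control group and at 0.496, 0.545 and 0.952 CPM in the model group. In the Rhy group it was at 1.37, 0 and 0.283 CPM, and in the DXM group at 0.616, 0.144 and 0 CPM. The groups overlapped, and the Rhy group held both the highest library of all and one at 0. Its log2 fold change was 0.33 (SE 1.11) in model against control, -0.33 (SE 1.12) in Rhy against model and -1.45 (SE 1.18) in DXM against model, none past an unadjusted p of 0.05 by edgeR. The last of these was -3.05 without DXM 1 and -0.84 without DXM 3. Gfi1b, a zinc finger repressor that erythroid and platelet precursors also use, was counted 4, 2 and 0 times in the control, 10, 8 and 6 times in the model, 5, 6 and 0 times in the Rhy and 3, 5 and 0 times in the DXM libraries. The model counts lay above those of the control and DXM groups without overlap (0.464 against 0.146 and 0.149 CPM on average), but at fewer counts than the test requires. The exact two-sided permutation p was 0.1 for both, the smallest possible. In the fit that kept every gene with any count, edgeR gave it an adjusted p of 0.823 and 0.809.

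Avil encodes advillin, an actin-binding protein of the villin family that sensory neurons also express. It was at 9.28, 5.14 and 4.44 CPM in the control group, 5.62, 4.79 and 5.42 in the model group, 9.84, 6.00 and 2.09 in the Rhy group and 6.30, 3.90 and 2.12 in the DXM group. The model libraries were the closest to each other and lay inside the range of each other group. Its log2 fold change was -0.25 (SE 0.53), 0.17 (SE 0.53) and -0.37 (SE 0.53) in the 3 comparisons, with 95% intervals of -1.28 to 0.78, -0.86 to 1.21 and -1.40 to 0.67. The DXM value was -0.81 without DXM 1 and -0.05 without DXM 3. Of its 3398 exonic bases, 165 lie across from Tsfm on the other strand, a gene with 6335 counts over all libraries against 1010 for Avil, and the strand setting of the counting is not given in the sources used here.

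The next 3 members make lipid mediators. Ptgs1, or cyclooxygenase 1, makes the precursor of prostaglandins and was the most abundant. It was at 55.4, 19.2 and 41.5 CPM in the control group, 23.4, 21.5 and 33.2 in the model group, 43.8, 25.4 and 32.1 in the Rhy group and 30.0, 43.2 and 33.0 in the DXM group. The control libraries held both the highest and the lowest value. The log2 fold change was -0.57 (SE 0.35) in model against control (edgeR, adjusted p = 0.616), 0.37 (SE 0.35) in Rhy against model (adjusted p = 1.00) and 0.44 (SE 0.35) in DXM against model (adjusted p = 0.752). The first of these moved with single control libraries, to -0.22 without control 1 and to -0.89 without control 2 (edgeR, adjusted p = 0.764, unadjusted under 0.05).

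Alox5, which begins leukotriene synthesis, was at 0.718 to 2.05 CPM in all 12 libraries and both extremes were in the Rhy group. Its group means were 1.29, 1.23, 1.24 and 1.22 CPM for control, model, Rhy and DXM libraries in turn. The log2 fold changes were -0.09 (SE 0.49), 0.0043 (SE 0.51) and -0.02 (SE 0.49), with 95% intervals reaching from -1.05 to 0.88, from -0.99 to 1.00 and from -0.98 to 0.95, so that a change of up to about 1 log2 unit was not detectable at this depth. Ltc4s, which joins glutathione to leukotriene A4, was at 0.530 to 2.12 CPM and both extremes were in the DXM group. Its log2 fold changes were 0.27 (SE 0.60), 0.20 (SE 0.59) and -0.02 (SE 0.58). Of its 1014 exonic bases, 268 (26.4%) lie across from the antisense gene Gm26542, which had 74 counts over all libraries, so that its reads are uncertain.

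Il25, the cytokine by which tuft cells reach ILC2, was barely counted. It had 5, 0 and 1 counts in the control libraries, 0, 2 and 2 in the model, 0, 0 and 1 in the Rhy and 0, 3 and 0 in the DXM libraries. With 6 of 12 libraries at 0 and 1 library above 3 counts, no difference between groups was detectable at this depth.

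**Figure D3:**
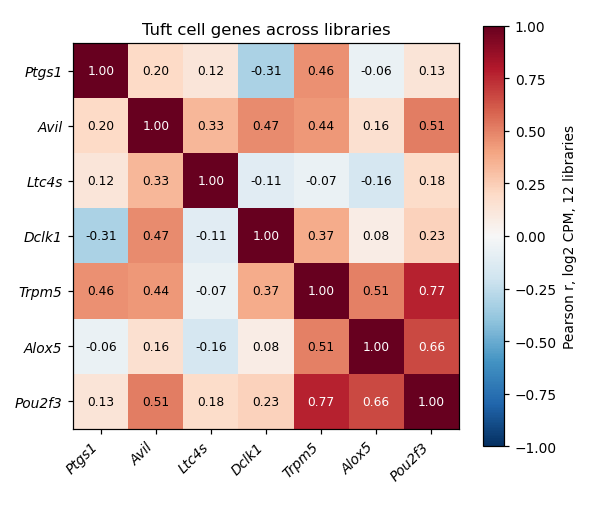
Pearson correlation of log2 CPM between the 7 tested tuft cell genes over the 12 libraries, with the value in each square. Trpm5 with Pou2f3 is the highest at 0.77, and Dclk1 with Ptgs1 the lowest at -0.31.

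Across the 12 libraries the tuft cell genes did not vary as a single block. Of the 21 pairs of tested genes, 16 had a positive Pearson correlation of log2 CPM, the median was 0.198 and the range was -0.315 to 0.766 (12 libraries, which share their groups and each library's composition). The highest was between Trpm5 and Pou2f3 at 0.766, and with group means removed it was 0.830. Pou2f3 with Alox5 followed at 0.663, or 0.737 with group means removed. Dclk1 was weakly tied to both chemosensory genes, with 0.374 to Trpm5 and 0.228 to Pou2f3, and 0.00058 and -0.166 with group means removed. It was closer to Avil, at 0.473 and 0.642 in the same way.

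Trpm5 and Pou2f3 were each highest in the library with low Hoxb13 in all 3 groups that had one, namely control 3, model 3 and Rhy 1. Trpm5 was at 4.06, 3.33 and 3.42 CPM in these, against means of 2.42, 2.63 and 0.648 CPM in the other libraries of the same groups. Pou2f3 was at 0.768, 0.952 and 1.37 CPM in these, against 0.395, 0.521 and 0.141 CPM. Of all 16904 tested genes, 1474 (8.72%) were highest in those 3 libraries in the same way. Ptgs1 and Alox5 were so in 2 of the 3 groups, Avil and Ltc4s in 1 and Dclk1 in 0.

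Among the 29 tested genes of a list of other tuft cell genes, 2 showed the pattern, a share below that of all tested genes. They were Bpgm, which makes 2,3-bisphosphoglycerate, and the adaptor gene Sh2d7. Sh2d7 was at 3.73 CPM in control 3, 1.96 in model 3 and 3.59 in Rhy 1, and at 0.506 to 1.65 CPM in the other 9 libraries. With a term for low Hoxb13 in the edgeR fit, in a split that the labels do not give and that was made after the data were seen, libraries with low Hoxb13 had a log2 difference of 1.16 (SE 0.47) for Trpm5 (adjusted p = 0.239), 1.62 (SE 0.83) for Pou2f3 (adjusted p = 0.342) and -0.10 (SE 0.24) for Dclk1 (adjusted p = 0.858). It called 0 of the 7 tuft cell genes and 1.17% of all tested genes, and edgeR's unadjusted p was under 0.05 for 1 of the 7, Trpm5, and for 17.4% of all tested genes. Of the 29 other tuft cell genes, 14 were higher and 15 lower in libraries with low Hoxb13, and 0 were called. At an unadjusted p under 0.05 there were 2 higher, Sh2d7 and Bpgm, and 3 lower, namely Spib (log2 difference -1.25, adjusted p = 0.0506), Inpp5d (-0.97, adjusted p = 0.0885) and Lrmp (-2.25, adjusted p = 0.154), the last 2 named after their values were seen. The part of colon position in the spread of Trpm5 and Pou2f3 was not tested beyond these values. Summed markers of B cells ranged widely too, from 10.7 to 183 CPM in the control and from 1.11 to 115 CPM in the Rhy group. Their part in the levels of Spib, Inpp5d and Lrmp was not tested.

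**Figure D4:**
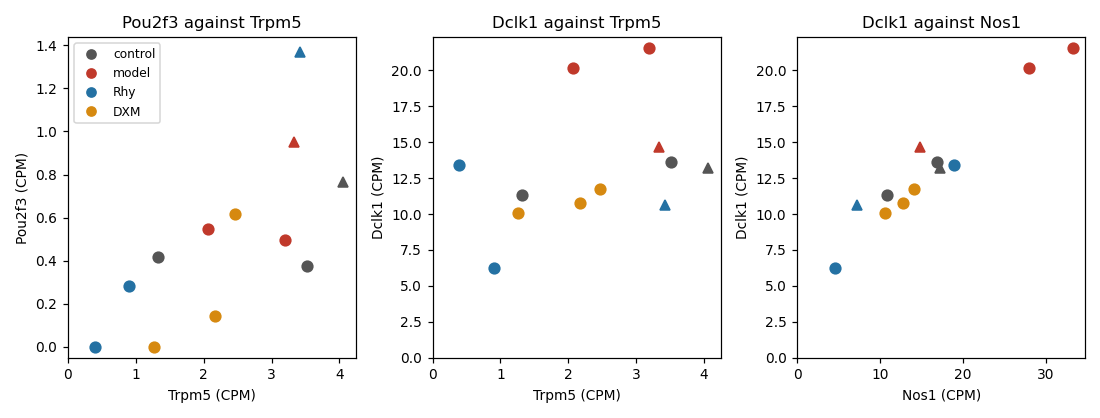
Pou2f3 against Trpm5, Dclk1 against Trpm5, and Dclk1 against Nos1, each in CPM on linear axes; every point is a library, colored by group, and triangles are the 3 libraries with Hoxb13 under 5 CPM. The triangles lie at Trpm5 of 3.33 to 4.06 CPM and hold the 3 highest values of Pou2f3, while Dclk1 follows Nos1 from 6.22 CPM in Rhy 3 to 21.5 CPM in model 1.

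Of the 16903 other tested genes, the one most like Dclk1 over the 12 libraries was Nos1, neuronal nitric oxide synthase, with a Pearson correlation of log2 CPM of 0.952. It was followed by Mapk8ip2 at 0.931 and Creg2 at 0.920, and 78 genes were over 0.8. Among the other tested members, the count of genes over 0.8 ran from 5 for Ltc4s to 170 for Avil. Nos1 was at 16.9, 10.8 and 17.2 CPM in the control group, 33.3, 28.0 and 14.8 in the model group, 7.19, 18.9 and 4.52 in the Rhy group and 14.0, 12.8 and 10.6 in the DXM group. Model 1 was the highest and Rhy 3 the lowest library for both Nos1 and Dclk1.

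Dclk1 is also known from neurons, so a list of 11 neuron and glia markers was read beside it. Of these, 10 were higher and 1 lower on average in the model than in the control group (median log2 fold change 0.45, 0 called), and their summed level was 116 to 233 CPM in the control, 228 to 235 in the model, 87.2 to 293 in the Rhy and 138 to 320 CPM in the DXM libraries, with no marker at 0 throughout. In Rhy against model 5 were higher and 6 lower (median -0.11), and in DXM against model 2 were higher and 9 lower (median -0.10), 0 called in both. The mean log2 level of the list had a correlation of 0.597 with Dclk1 and 0.757 with Avil over the 12 libraries, against 0.158 with Trpm5 and 0.159 with Pou2f3. The mean of the 29 other tuft cell genes had one of 0.525 with Dclk1. The part of neuronal RNA in the level of Dclk1 was not tested.

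For the other members the genes most alike by the same measure were Lrrc75b (0.868), Slc38a7 (0.858) and Bmf (0.858) for Trpm5, and Sox6 (0.919), Tbx3 (0.903) and Bpgm (0.903) for Pou2f3. They were Gnl1 (0.941), Csnk1g2 (0.934) and Ppp2r3d (0.931) for Avil, and Gm10362 (0.899), 1700019D03Rik (0.893) and Tgif2 (0.874) for Ptgs1. For Alox5 they were Ldhd (0.914), Enpp5 (0.889) and Eci3 (0.882), and for Ltc4s Gm12696 (0.841), Trappc5 (0.827) and Hrct1 (0.814). Bpgm was the one gene among these that the list of other tuft cell genes also held.

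Average levels of markers of colon epithelium, the tissue layer that holds the tuft cells, differed among the groups too. All 10 were lower on average in the model than in the control group (median log2 fold change -0.35, 0 called). Of these, 3 did not overlap, beside 17.0% of all tested genes. In Rhy against model 7 were higher (median 0.28), 4 of them without overlap, beside 11.5% of all tested genes. In DXM against model 8 were lower (median -0.23), 1 of them without overlap, beside 22.6% of all tested genes. All 10 were lower in the DXM than in the control group (median -0.75, 0 called). There 5 had an unadjusted p under 0.05 by edgeR, beside 18.9% of all tested genes. The mean log2 level of the list had a correlation over the 12 libraries of 0.714 with Pou2f3, 0.538 with Avil, 0.361 with Trpm5 and 0.0188 with Dclk1, and its part in their levels was not tested.

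Mast cells and myeloid cells also make leukotrienes and prostaglandins. The mast cell protease gene Cpa3, named to check for such cells, was at 0 to 1.67 CPM in the 12 libraries, and the 11 mast cell markers summed to 19.3 to 80.5 CPM in the control, 27.2 to 36.4 in the model, 26.1 to 28.0 in the Rhy and 39.4 to 49.5 CPM in the DXM libraries, most of it from Kit, which pacemaker cells of the gut also express. Of the 9 tested, 7 were higher and 2 lower in the DXM than in the model group (median log2 fold change 1.60). There 2 did not overlap, beside 22.6% of all tested genes in either direction. Against the control group, 6 were higher and 3 lower in the DXM group (median 2.86). By edgeR, 4 had an unadjusted p under 0.05 there, beside 18.9% of all tested genes, and 0 were called in both. Control means of Tpsab1, Tpsb2 and Cpa3 were 0, 0.118 and 0.111 CPM, below the level of 3 counts, so the median of 2.86 is uncertain. The 11 myeloid markers summed to 166 to 347 CPM in the control, 202 to 209 in the model, 68.8 to 386 in the Rhy and 263 to 658 CPM in the DXM libraries. No myeloid marker was at 0 throughout. All 10 tested myeloid markers were higher on average in the DXM than in the model group (median log2 fold change 1.10, 0 called). Of these, 6 did not overlap, beside 22.6% of all tested genes in either direction. By edgeR, 3 had an unadjusted p under 0.05, beside 7.69% of all tested genes. The log2 fold changes of Alox5 and Ltc4s there were -0.02 (SE 0.49) and -0.02 (SE 0.58). The part of mast and myeloid cells in the levels of Ptgs1, Alox5 and Ltc4s was not tested. Of 7 platelet markers, Treml1 was at 0 in every library. Their sum was 5.8 to 7.7 CPM in the control, 3.0 to 6.3 in the model, 3.4 to 12.0 in the Rhy and 7.5 to 22.7 CPM in the DXM libraries. The part of platelets in the counts of Gfi1b, which were 0 to 5 in the DXM libraries, was not tested.

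The list of other tuft cell genes held 37 names, of which 35 were in the table and 29 were tested. None was called by edgeR in any comparison. In model against control 13 were higher and 16 lower on average (median log2 fold change -0.04), with 0 at an unadjusted p under 0.05 (background 9.62%) and 2 without overlap of the groups (background 17.0%). In Rhy against model 10 were higher and 19 lower (median -0.13), 1 at an unadjusted p under 0.05 (background 3.72%) and 6 lower without overlap (background 11.5% in either direction). In DXM against model 14 were higher and 15 lower (median -0.04), 1 at an unadjusted p under 0.05 (background 7.69%), and 7 lower and 3 higher without overlap (background 22.6% in either direction).

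The 6 of highest level were the calcium pump gene Atp2a3 at 81.4 FPKM, the inositol trisphosphate receptor gene Itpr3 at 16.5, the phosphatase gene Ptpn6 at 15.4, Bpgm at 13.2, the transcription factor gene Spib at 7.86 and Kctd12 at 6.48 FPKM over the 12 libraries. Trpm5 was at 0.362 FPKM beside them, and the part of other cells in the levels of these 6 was not tested. Itpr3, which releases the calcium that opens Trpm5, was at 163, 167 and 159 CPM in the model group, 134, 117 and 127 in the Rhy group and 134, 127 and 130 in the DXM group, after 163, 192 and 188 in the control group. Both treated groups lay below the model group without overlap. The log2 fold change was -0.37 (SE 0.15) for Rhy against model (edgeR, adjusted p = 1.00, unadjusted under 0.05) and -0.32 (SE 0.15) for DXM against model (edgeR, adjusted p = 0.648).

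Rgs13, a regulator of G protein signaling that germinal center B cells also express, was the one gene among the 3 largest differences of all 3 comparisons. It was at 1.20, 2.57 and 2.14 CPM in the control group, 4.30, 3.82 and 4.41 in the model group, 3.51, 0.848 and 2.94 in the Rhy group and 0.822, 2.41 and 1.77 in the DXM group. The model libraries were above all others, as for Dclk1. Its log2 fold change was 1.08 (SE 0.53) in model against control, -0.78 (SE 0.53) in Rhy against model and -1.31 (SE 0.53) in DXM against model (edgeR, adjusted p = 0.545, 1.00 and 0.637), the last with an unadjusted p under 0.05. Markers of B cells moved among the libraries too, with 7 markers summing to 10.7 to 183 CPM in the control, 123 to 157 in the model, 1.11 to 115 in the Rhy and 142 to 158 CPM in the DXM group, and their part in the level of Rgs13 was not tested.

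The other large differences did not pass an unadjusted p of 0.05. They were a log2 fold change of -1.38 (SE 0.80) for the adaptor gene Sh2d6 and 1.13 (SE 0.64) for the homeobox gene Hmx3 in model against control. In Rhy against model they were -0.96 (SE 0.60) for the choline acetyltransferase gene Chat and -0.83 (SE 0.48) for Spib, and in DXM against model 1.65 (SE 0.86) for the cytokine gene Tslp and -1.32 (SE 0.65) for Sh2d7.

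The circuit between tuft cells and ILC2 was described from 19 genes, of which 15 were tested and 0 called in any comparison. Il13, the cytokine by which ILC2 act on the epithelium, was at 0 in all 12 libraries. In model against control 4 were higher and 11 lower (median log2 fold change -0.19), in Rhy against model 9 were higher and 6 lower (median 0.19), and in DXM against model 9 were higher and 6 lower (median 0.61). In Rhy against model 2 of the 15 were lower and 0 higher without overlap, beside 11.5% of all tested genes in either direction. Il4ra, the receptor chain for interleukins 4 and 13, is singled out after its values were seen. It was at 55.8, 55.5 and 51.8 CPM in the model group and at 35.4, 32.8 and 33.6 CPM in the Rhy group, which did not overlap. The log2 fold change was -0.68 (SE 0.17; edgeR adjusted p = 1.00).

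Of 28 genes of the eicosanoid pathway around Ptgs1, Alox5 and Ltc4s, 25 were tested and 0 called in any comparison. In model against control 9 were higher and 16 lower (median log2 fold change -0.10), in Rhy against model 19 were higher and 6 lower (median 0.17), and in DXM against model 21 were higher and 4 lower (median 0.44). Slco2a1, the prostaglandin transporter, and Ptgs2, the inducible cyclooxygenase, were also singled out after their values were seen. Slco2a1 was at 199, 250 and 109 CPM in the control group and at 72.2, 70.1 and 73.2 CPM in the model group, a log2 fold change of -1.37 (SE 0.38; edgeR adjusted p = 0.459). Ptgs2 was at 3.91, 3.33 and 5.24 CPM in the model group and at 5.27, 8.19 and 20.4 CPM in the DXM group, a log2 fold change of 1.44 (SE 0.56; edgeR adjusted p = 0.637). Neither pair of groups overlapped. Of the 25 tested genes, 1 was higher and 2 lower without overlap in model against control, beside 17.0% of all tested genes. In DXM against model 3 were higher and 1 lower without overlap, beside 22.6% of all tested genes. Ptgs1 overlapped in every comparison.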

How the data were processed

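RNA-Seq of 12 mouse colon libraries, 3 per group, was analysed from the whole-number counts per gene that the authors deposited without normalization; per the labels, reads were aligned to mm10 with HISAT2 2.0.5 and counted with featureCounts 1.5.0-p3, and DESeq2 1.16.1 was used. The FPKM values the authors deposited are these counts per length and scaled library size and served for levels between genes. Genes were kept with edgeR's filterByExpr (minimum count 10), scaled by TMM and tested with edgeR 4.0.16 in R 4.3.3 (glmQLFit and glmQLFTest, two-sided, 12 libraries in 1 fit, Benjamini-Hochberg adjustment over 16904 genes). SEs were taken from the F statistic, as the absolute log2 fold change over the root of F, and 95% intervals as ± normal quantiles of the SE. Correlations used log2 CPM (prior count 2). Alternatives were DESeq2 1.42.0 and limma 3.58.1, the latter on log2(FPKM + 1) and log2(FPKM + 0.1). The edgeR and DESeq2 tests were also run on simulated data with independent libraries, a setting that does not match the close pair of model 1 and model 2. Members and lists were chosen with earlier results of these data known. Named were all members, of other tuft cell genes the 6 highest and the 3 largest differences per main comparison, list genes with an adjusted p under 0.05 (there were 0), and the 3 genes most like each tested member; Il4ra, Slco2a1, Ptgs2, Inpp5d, Lrmp and single markers of other cell types were named outside this rule, after their values were seen. Coordinates match GENCODE M21 (GRCm38).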

Additional observations from a re-analysis of the deposited data

How the results depend on the processing

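The count of tuft cell genes called was 0 in all 7 comparisons under every alternative run, namely RLE and upper-quartile scaling, no filter on low counts, DESeq2, limma with pseudocounts of 1 and 0.1, only the groups compared, a replicate block, each library left out, and 2 chosen after seeing the data (model 1 and model 2 summed as 1 library, and a term for Hoxb13 under 5 CPM). In DESeq2, members without an adjusted p, such as Trpm5, Pou2f3, Avil, Alox5 and Ltc4s in model against control, were counted as not called. Of 333 log2 fold changes recomputed, 297 kept their direction and 36 reversed, in 11 of 21 results. Dclk1 kept its direction in all 16 alternatives of each comparison (0.249 to 0.668 in model against control, adjusted p 0.402 to 0.892; -1.16 to -0.412 in Rhy against model, adjusted p 0.771 to 1.0; -0.928 to -0.368 in DXM against model, adjusted p 0.203 to 1.0). Its unadjusted p went above 0.05 in DXM against model in 1 of the 16 (without model 1, -0.685) and under 0.05 in model against control in 2 of the 16 (only the groups compared, 0.56; without model 3, 0.668). Of the other members, Trpm5 in Rhy against model (without Rhy 1) and Ptgs1 in model against control (without control 2) also went under it.

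With all libraries kept, the reversed values were at most 0.153 from 0, and the cause was not tested. In model against control Trpm5 was 0.0185 under the replicate block, 0.0103 with model 1 and model 2 summed and 0.0228 with the Hoxb13 term, and Alox5 was 0.00887 with that term. In Rhy against model Avil was -0.0689 under the replicate block and -0.0283 with limma at 0.1, and Alox5 was -0.0567, -0.0407, -0.0071 (upper-quartile), -0.000169 (only the groups compared) and -0.118 (Hoxb13 term). In DXM against model Alox5 was 0.0589 (upper-quartile), 0.0273 (summed) and 0.153 (Hoxb13 term), and Ltc4s was 0.0636 (upper-quartile) and 0.0731 (Hoxb13 term). With 1 library left out, model against control ran from -0.401 to 0.224 for Trpm5, -0.0631 to 0.711 for Pou2f3, -0.474 to 0.139 for Avil, -0.355 to 0.21 for Alox5 and -0.306 to 0.681 for Ltc4s. Rhy against model ran from -2.12 to 0.273 for Pou2f3, -0.386 to 0.583 for Avil, -0.538 to 0.282 for Alox5 and -0.0119 to 0.769 for Ltc4s. The values farthest from 0 that reversed were those of Alox5 (-0.538) and Avil (-0.386) in Rhy against model without Rhy 1, and of Ltc4s without model 3, 0.536 in DXM against model and -0.306 in model against control. DXM against model ran from -0.237 to 0.153 for Alox5, -0.81 to 0.536 for Ltc4s, -3.05 to -0.838 for Pou2f3 and -0.805 to -0.0518 for Avil.

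Libraries of the same number did not deviate together: over 18 pairs the correlation was -0.31 to 0.363, 6 were over 0.1, and 5 of 12 libraries correlated best with their own number. The replicate block called 0 genes, with 1820, 626 and 1244 of all genes at an unadjusted p under 0.05 in the 3 main comparisons against 1626, 628 and 1300 without it. Few counts limit Pou2f3, Gfi1b and Il25 most, with 2, 3 and 6 libraries at 0.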
